A study of Mus musculus with 12 samples.

Results

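The genes of DNA replication and the cyclins that drive it were followed through RNA-Seq of mouse epiblast-like cells (EpiLCs) with and without *Kdm5c*, an X-linked gene that encodes a histone demethylase acting on methylated lysine 4 of histone H3. The set holds 49 genes, taken by name from a list of replication fork, origin, cyclin, cyclin-dependent kinase and E2F genes, and all 49 were among the 22911 genes measured. EpiLCs were obtained from embryonic stem cells (ESCs) kept in 2i and LIF, by 48 h of growth on fibronectin with FGF2 and Activin A. There were 4 genotypes with 3 libraries each, and per the study's methods each library came from a separate ESC line that had been derived on fibroblast feeders. The labels give the strain as C57BL/6J, whereas the study's methods describe the floxed *Kdm5c* strain as of mixed background. The genotypes are labelled *Smcx* wild type and *Smcx* knockout, *Smcx* being an older name of *Kdm5c*. Control females (fWT) were *Kdm5c* fl/fl and mutant females (fKO) *Kdm5c* Δ/Δ. Control males (mWT) carried the floxed allele on their single X chromosome (*Kdm5c* flY), and mutant males (mKO) the deleted one (*Kdm5c* ΔY). The controls thus carried loxP sites too, and the Δ allele lacks exons 11 and 12, which encode part of the catalytic domain, so RNA from the other exons can still be counted.

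Replication starts at origins that are licensed before S phase. The origin recognition complex, with *Cdc6* and *Cdt1*, loads the Mcm2 to Mcm7 ring onto DNA, and geminin (*Gmnn*) binds *Cdt1* and prevents a repeat of licensing. Cyclin E with *Cdk2* and the *Dbf4*-dependent kinase then turn the ring, with *Cdc45* and the GINS complex, into an active helicase, and primase, the polymerases, the sliding clamp and the clamp loader follow. D-type cyclins with *Cdk4* or *Cdk6* release E2F factors from the retinoblastoma protein family, and E2F factors activate many of these same genes. Pluripotent cells are known for a short G1 phase.

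The libraries held between 5516216 and 11092731 reads worked out from the deposited group means, and the members had between 33 reads (*E2f2*) and 7941 reads (*Pcna*) in a library. Values are normalized counts, that is, reads divided by the size factor of the library, and libraries are named A, B and C within a group by falling size factor, since they could not be tied to the sample labels. *Kdm5c* had 2315 to 2429 normalized counts in fWT and 1406 to 1505 in fKO, and 2110.1 to 2371 in mWT and 1897 to 1976 in mKO. The female libraries lay close together, with a median absolute log2 difference from the other libraries of their group of 0.0879 to 0.0973, whereas mWT B (0.228) and mKO A (0.255) stood apart from the other males (0.154 to 0.176). The chi-square per gene between 2 libraries of a group, which grows with spread beyond counting, was 2.15 to 3.01 in fWT and 3.99 to 5.18 in fKO. It was 2.61 for mWT A and C and 2.93 for mKO B and C, against 19.6 to 35.6 for pairs with mWT B or mKO A. Whether this spread covers that between separate ESC lines was not tested, and the adjusted p-values rest on it. Libraries mWT A and mWT C had reads on 20773 and 20368 genes, against 17163 to 17731 genes in the other 10 libraries.

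All 7 EpiLC markers had a mean of at least 10 in every group. Of these, 4 rose and 2 fell in females (sums of 11252 to 11604 normalized counts in fWT and 19117 to 19799.8 in fKO), and 3 fell in males (12953 to 21721 in mWT and 10744 to 13978 in mKO). Markers of other cell types moved with the groups as well. Of 6 endoderm markers (*Gata4*, *Gata6*, *Sox17*, *Foxa2*, *Afp*, *Cubn*), 6 rose in fKO, and their summed normalized count went from 222 to 285 in fWT to 5037 to 5178 in fKO. In males the sum was 2261, 3997 and 2166 in mWT A, B and C and 539.7, 4328 and 4513 in mKO A, B and C, and 1 of the 6 fell. Of 6 fibroblast markers, 3 fell in females (sums of 2252 to 2301 in fWT and 746 to 812 in fKO) and 4 rose in males (559 to 823 in mWT and 4166 to 4663 in mKO). Of 6 markers of naive pluripotency, 5 rose and 1 fell in females (3609 to 3770.3 in fWT, 4093 to 4294 in fKO), and 4 rose in males (3919 to 4711 in mWT, 6932 to 8857 in mKO). *Nanog*, the largest part of the female sums, fell from a mean of 2813 in fWT to 1505 in fKO. The other 5 rose in females by 1.38-fold (*Zfp42*) to 7.94-fold (*Klf4*), so the sum understates their change. Of 3 neural markers, 1 rose and 1 fell in females (212 to 239 in fWT, 28.3 to 41.5 in fKO), and their sum was 84.8 to 109 in mWT and 296, 29.4 and 39.3 in mKO A, B and C. In females *Sox1* fell from a mean of 209 to 24.8, and *Neurog2* rose from 0 to only 2.09. Of 4 mesoderm markers, 2 rose and 1 fell in females (271 to 303 in fWT, 242 to 259 in fKO), and their sum was 199.5 to 228 in mWT and 129.9, 277 and 276 in mKO A, B and C. In females *T* fell from a mean of 96.7 to 11.4, while *Eomes*, the largest part of the sum, was at 177 and 186. *Neurog2* in fWT was the only marker at 0 in all libraries of a group. The part of these markers in the results that follow was not tested. In bulk RNA, fewer cells of a type and less RNA per cell cannot be told apart.

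The members are widely known as E2F targets, so the promoters that RefSeq gives for them (GRCm38.p6, from 250 bases before to 50 bases after the start) were searched for the words TTTCCCGC, TTTCGCGC, TTTGCCGC and TTTGGCGC on both strands. Promoters of 37 of the 49 members were matched, 44 in all. *Ccna2*, *Ccnd1*, *Ccnd2*, *Ccne2*, *Gins1*, *Gins2*, *Gins4*, *Gmnn*, *Mcm4*, *Pole*, *Prim2* and *Rfc2* had no entry. Of the 44 promoters, 16 (36.4%) held an E2F word, against 552 of 17676 promoters of all genes tested (3.12%). The word occurred in 4 of 17 matched members that rose in females, 2 of 4 that fell and 10 of 16 that did not pass the test. The windows below show the 150 bases before the start, with E2F words in capitals, for members of each kind. *Cdc6* and *E2f3* rose in females, *Gins3* fell, and *Mcm5*, *Mcm6* and *Cdk1* did not pass the test.
Cdc6 (chr11:98908001-98908150, + strand): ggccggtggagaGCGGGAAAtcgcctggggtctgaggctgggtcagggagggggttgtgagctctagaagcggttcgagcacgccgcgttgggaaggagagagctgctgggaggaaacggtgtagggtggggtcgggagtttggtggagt
E2f3 (chr13:29986064-29986213, − strand): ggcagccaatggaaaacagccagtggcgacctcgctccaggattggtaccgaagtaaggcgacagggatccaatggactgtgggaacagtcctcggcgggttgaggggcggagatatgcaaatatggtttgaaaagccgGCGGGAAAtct
Gins3 (chr8:95633409-95633558, + strand): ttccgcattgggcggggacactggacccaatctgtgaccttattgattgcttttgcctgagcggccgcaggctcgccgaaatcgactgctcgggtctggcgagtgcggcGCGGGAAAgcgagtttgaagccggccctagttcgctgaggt
Mcm5 (chr8:75109359-75109508, + strand): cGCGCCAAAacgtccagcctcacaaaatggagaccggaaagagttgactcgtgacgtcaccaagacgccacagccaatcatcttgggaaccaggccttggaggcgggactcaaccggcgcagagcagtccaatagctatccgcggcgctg
Mcm6 (chr1:128359706-128359855, − strand): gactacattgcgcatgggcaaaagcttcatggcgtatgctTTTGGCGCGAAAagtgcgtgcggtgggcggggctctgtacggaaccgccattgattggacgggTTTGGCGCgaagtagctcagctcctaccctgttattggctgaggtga
Cdk1 (chr10:69352913-69353062, − strand): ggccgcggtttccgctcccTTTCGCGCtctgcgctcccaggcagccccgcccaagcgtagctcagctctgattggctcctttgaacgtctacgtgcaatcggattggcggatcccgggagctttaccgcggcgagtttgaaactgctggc

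The window of *Mcm6* held 3 E2F words, of which a pair overlaps, and the other windows held 1 each. None of the 4 members with the highest rise in females that had an entry (*Rfc5*, *Orc2*, *Rpa2* and *Mcm10*) held an E2F word. CCAAT, the word bound by NF-Y, was found on either strand in 29 of the 44 member promoters (65.9%) and in 37.3% of all promoters searched. The cell cycle homology words TTTGAA and TTCGAA were found in 8 (18.2%) and in 15.0%. The windows of the 4 members are shown because they carry the largest rises, with CCAAT, or ATTGG where it lies on the other strand, in capitals. The windows of *Rfc5* and *Orc2* held none, although the longer promoter searched for *Orc2* did hold the word.
Rfc5 (chr5:117389024-117389173, − strand): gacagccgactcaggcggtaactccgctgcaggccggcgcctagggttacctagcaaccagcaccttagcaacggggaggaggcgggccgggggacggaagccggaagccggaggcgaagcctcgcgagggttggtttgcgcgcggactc
Orc2 (chr1:58505110-58505259, − strand): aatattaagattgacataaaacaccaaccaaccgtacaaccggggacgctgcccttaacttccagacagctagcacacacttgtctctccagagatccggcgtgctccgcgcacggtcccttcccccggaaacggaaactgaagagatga
Rpa2 (chr4:132768210-132768359, + strand): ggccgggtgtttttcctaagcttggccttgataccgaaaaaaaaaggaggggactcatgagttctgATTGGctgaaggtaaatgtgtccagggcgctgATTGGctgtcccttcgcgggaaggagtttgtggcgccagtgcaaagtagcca
Mcm10 (chr2:5012792-5012941, − strand): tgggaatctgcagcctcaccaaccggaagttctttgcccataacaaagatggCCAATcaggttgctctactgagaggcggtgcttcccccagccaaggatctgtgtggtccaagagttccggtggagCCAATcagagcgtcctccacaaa

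To ask whether loss of *Kdm5c* changes these genes in females, fKO was compared with fWT with limma, fitted to all genes on log2(normalized count + 1), with Benjamini-Hochberg adjustment over all genes and a threshold of 0.05. Of the 49 members, 23 rose and 5 fell. Over the 19572 genes tested, 25.4% rose and 24.7% fell. The share of members that rose (46.9%) lay above that background, and the share that fell (10.2%) below it. The members were chosen with earlier results of these data known, so these shares are descriptive. The median log2 fold change of the members was 0.14, against 0.00 over all genes and 0.04 over the 9556 genes with a mean of at least 100. The changes were small for most members. The log2 fold change lay between −1.13 and 0.98, and 39 members had a positive sign. For 29 members the fKO and fWT libraries were fully apart, with 24 higher and 5 lower in every fKO library (27.6% and 27.2% of all genes). Here and below, 3 libraries against 3 cannot give an exact permutation p below 0.10 (two-sided) for a single gene. With the spread estimated from all 12 libraries, the males included, 12 members rose and 2 fell, and the shares over all genes were lower too (14.8% and 14.7%). Among the 13904 genes with a mean of at least 10, 33.4% rose and 32.5% fell, against 25 and 5 of the 49 members. With scaling by total reads, 17 members rose and 7 fell, against 22.1% and 27.8% of genes. *Mcm2*, *Mcm4*, *Cdt1*, *Rpa1*, *Ccnd3* and *Cdk4* no longer passed, while *Pcna* and *Rfc1* fell. The median over members was then 0.07, against −0.06 over all genes.

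**Figure D1:**
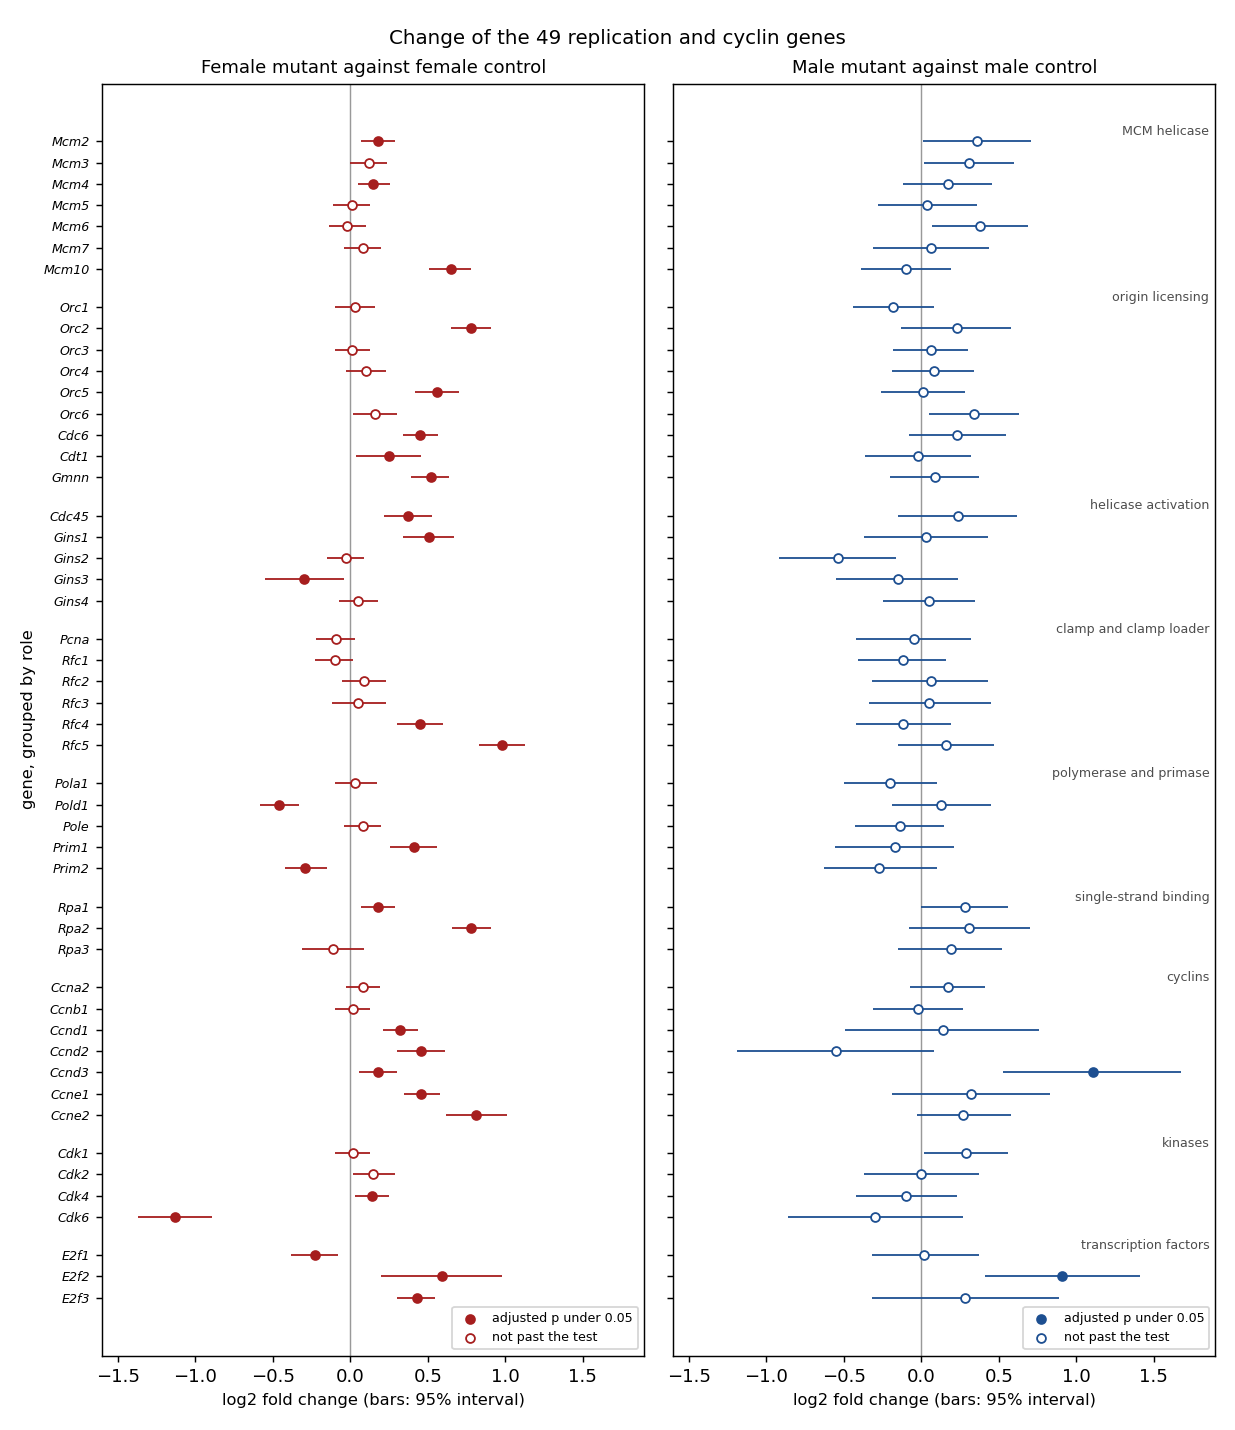
Log2 fold change of each of the 49 members in mutant against control females (left) and males (right), with 95% intervals from limma, grouped by role. Filled points have an adjusted p under 0.05, which holds for 23 rises and 5 falls in females and for 2 rises (*Ccnd3* and *E2f2*) in males.

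Within the helicase, the Mcm2 to Mcm7 ring changed little in females. *Mcm2* rose by 0.18 ± 0.052 (log2, SE, adjusted p = 0.00765 by limma) and *Mcm4* by 0.15 ± 0.051 (adjusted p = 0.0180, lost without fWT C), while the values of *Mcm3*, *Mcm5*, *Mcm6* and *Mcm7* lay between −0.02 and 0.12 and did not pass the test. *Mcm10*, a scaffold that helps the ring to fire and is no subunit of it (mm9 chr2:4910760-4933837), had 1108, 1158 and 997 normalized counts in fWT and 1643, 1670.0 and 1785 in fKO. Every fKO library was above every fWT library, and the log2 fold change was 0.65 ± 0.063 (adjusted p = 1.08e-07). Across the helicase genes 3 of 7 rose and 0 fell.

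Of 9 origin licensing genes, 5 rose and 0 fell (25.4% and 24.7% of all genes), and the members of the origin recognition complex did not move alike. *Orc2* (mm9 chr1:58519615-58561953), a subunit of the complex, had 918, 956 and 963 normalized counts in fWT and 1567, 1770.2 and 1539 in fKO, a log2 fold change of 0.78 ± 0.062 (adjusted p = 7.23e-09). *Orc5* (mm9 chr5:21992303-22056247) had 445, 479 and 515 in fWT and 717, 714 and 693 in fKO, a log2 fold change of 0.56 ± 0.067 (adjusted p = 1.21e-06). In both genes the genotypes were well apart. *Orc1*, *Orc3*, *Orc4* and *Orc6* lay between 0.01 and 0.16 and did not pass the test. The inhibitor of licensing, *Gmnn* (mm9 chr13:24843714-24853792), had 1404, 1444 and 1612 in fWT and 2056, 2205 and 2108 in fKO, a log2 fold change of 0.52 ± 0.060 (adjusted p = 1.04e-06). Its target *Cdt1*, which brings the ring to origins, was at 178 ± 12.3 in fWT and 212 ± 24.7 in fKO (SD, n = 3 libraries), and its adjusted p of 0.04999 (limma) lay on the threshold. The call of *Cdt1* was lost without any single library but fKO B. *Cdc6*, which loads the ring with the origin recognition complex, rose by 0.45 ± 0.055 (adjusted p = 1.63e-06).

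Among the genes that activate the helicase, *Cdc45* and the GINS subunit *Gins1* rose, by 0.37 ± 0.072 and 0.51 ± 0.079 (log2, SE, limma adjusted p = 2.60e-04 and 2.85e-05). The GINS subunit *Gins3* (mm9 chr8:98157459-98168959) went the other way, with 142, 142 and 119 normalized counts in fWT and 98.0, 111 and 117 in fKO, a log2 fold change of −0.30 ± 0.12 (adjusted p = 0.0482). The highest fKO library lay just below the lowest fWT library, and the call was lost without fWT A, fWT B, fKO A (log2 fold change −0.23) or fKO B, and in the fit over all 12 libraries. *Gins2* and *Gins4* lay at −0.03 and 0.05 and did not pass the test.

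The clamp *Pcna*, which holds polymerases on DNA, and the clamp loader subunits *Rfc1*, *Rfc2* and *Rfc3* lay between −0.10 and 0.09 in females and did not pass the test. The other two loader subunits rose. *Rfc5* (mm9 chr5:117828112-117839056) had 425, 522 and 475 normalized counts in fWT and 937, 907 and 943 in fKO, the highest log2 fold change of all 49 members (0.98 ± 0.072, adjusted p = 2.60e-09, 1.97-fold). *Rfc4* (mm9 chr16:23114016-23127810) had 432, 506 and 496 in fWT and 616, 684 and 655 in fKO, a log2 fold change of 0.45 ± 0.073 (adjusted p = 4.43e-05). The fKO libraries were above all fWT libraries in both.

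Polymerase and primase genes were split in females. *Pold1* (mm9 chr7:51788116-51804219), the catalytic subunit of polymerase delta, had 2177, 2069 and 2166 normalized counts in fWT and 1675, 1524 and 1476 in fKO, a log2 fold change of −0.46 ± 0.058 (adjusted p = 2.96e-06). *Prim1* (mm9 chr10:127452228-127467093), the catalytic subunit of primase, had 327, 341 and 340.2 in fWT and 423, 466 and 454 in fKO and so rose by 0.41 ± 0.070 (adjusted p = 7.65e-05). Its partner *Prim2* (mm9 chr1:33510656-33726631), the large primase subunit, had 517, 526 and 547 in fWT and 426, 449 and 427 in fKO and fell, with a log2 fold change of −0.29 ± 0.065 (adjusted p = 0.00108). Neither primase subunit overlapped between genotypes, but in the fit over all 12 libraries the call of *Prim2* was lost (limma adjusted p = 0.106). *Pola1* (0.03), the catalytic subunit of polymerase alpha and the only X-linked member, and *Pole* (0.08), that of polymerase epsilon, did not pass the test.

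Of the 3 subunits of replication protein A, which coats single-stranded DNA, *Rpa2* (mm9 chr4:132324247-132334667) changed most, with 706, 784 and 712 normalized counts in fWT and 1256, 1234 and 1301 in fKO (log2 fold change 0.78 ± 0.060, adjusted p = 4.59e-09). *Rpa1* rose by 0.18 ± 0.052 (adjusted p = 0.00695), and *Rpa3* lay at −0.11 ± 0.095 (adjusted p = 0.370). The 3 subunits form 1 complex, and their changes ranged from −0.11 to 0.78.

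**Figure D2:**
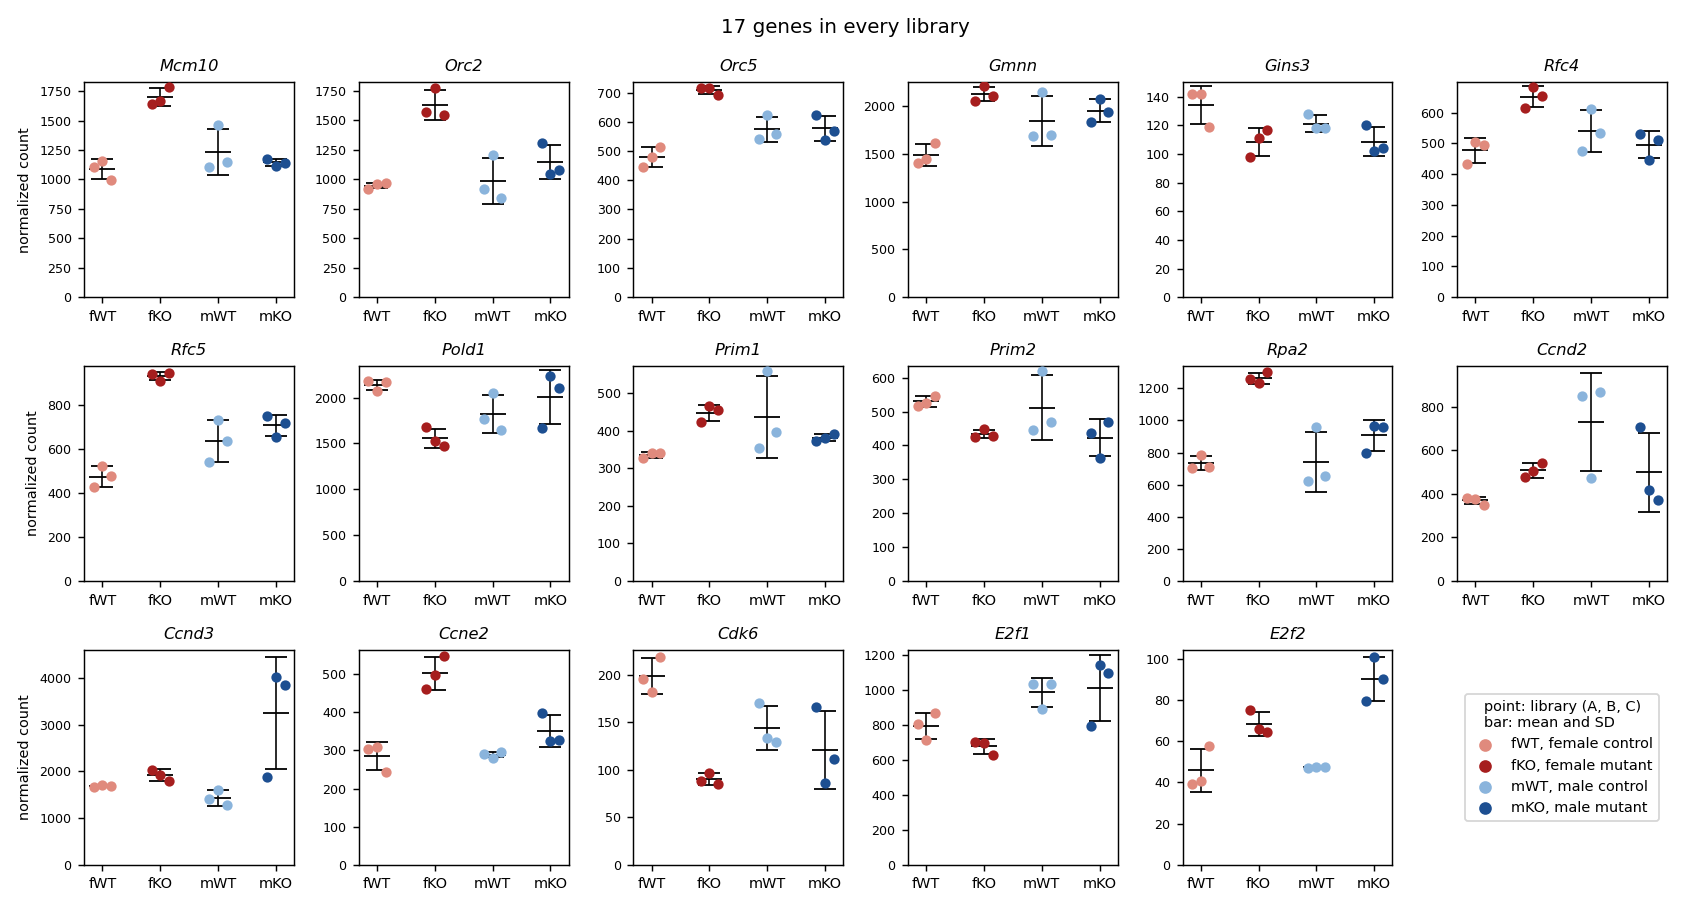
Normalized counts of 17 members in each of the 12 libraries (points), with the mean and SD of each group (bars), on linear axes that start at 0. In females the groups do not overlap in any panel, and in *Rfc5* the fKO libraries (907 to 943) lie far above the fWT libraries (425 to 522), while the male groups overlap in all panels but *Ccnd3*, *Ccne2* and *E2f2*.

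The D-type and E-type cyclins rose in the fit to the female libraries, and *Ccna2* and *Ccnb1* did not pass the test. *Ccne2* (mm9 chr4:11118498-11131926), which activates *Cdk2* at the start of S phase, had 305, 309.6 and 243 normalized counts in fWT and 461, 497 and 548 in fKO, a log2 fold change of 0.81 ± 0.092 (adjusted p = 7.27e-07). The paralog *Ccne1* rose by 0.46 ± 0.054 (adjusted p = 1.02e-06) and *Ccnd1* by 0.32 ± 0.056 (adjusted p = 8.84e-05). *Ccnd2* (mm9 chr6:127075797-127101066) had 383, 376 and 349 in fWT and 476, 505 and 542 in fKO and rose by 0.46 ± 0.072 (adjusted p = 3.40e-05). *Ccnd3* (mm9 chr17:47642000-47736632) had 1672, 1704 and 1695 in fWT and 2036, 1931 and 1789.7 in fKO and rose by 0.18 ± 0.057 (adjusted p = 0.0133), a call that was lost without fWT A or fKO A. *Ccna2*, of S and G2, and *Ccnb1*, of mitosis, lay at 0.08 and 0.02. In all, 5 of 7 cyclins rose and 0 fell (25.4% and 24.7% of all genes). In the fit over all 12 libraries, however, *Ccne2* alone of the 5 passed (limma adjusted p = 0.172 for *Ccnd2* and 0.635 for *Ccnd3*).

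Among the kinases, *Cdk6* fell and its paralog *Cdk4* rose. *Cdk6* (mm9 chr5:3343893-3523218), a partner of D-type cyclins, had 195, 182 and 219 normalized counts in fWT and 88.6, 96.8 and 84.9 in fKO, the largest fall of all 49 members in females (log2 fold change −1.13 ± 0.11, adjusted p = 1.36e-07, 0.46-fold). *Cdk4* was at 2822 ± 62.7 in fWT and 3112 ± 78.0 in fKO (SD, n = 3 libraries) and rose by 0.14 ± 0.051 (adjusted p = 0.0294, lost without fWT A, fWT C, fKO A or fKO C). Per exonic kilobase, *Cdk6* held 5.78% ± 0.598 of the sum of *Cdk4* and *Cdk6* in fWT and 2.46% ± 0.219 in fKO. *Cdk1* (0.02) and *Cdk2* (0.15, adjusted p = 0.0586) did not pass the test.

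The 3 activating E2F factors each passed the test in females, in different directions. *E2f1* (mm9 chr2:154385143-154395628) had 803, 715 and 864 normalized counts in fWT and 704, 693 and 629.6 in fKO and fell, with a log2 fold change of −0.23 ± 0.073 (adjusted p = 0.0131), a call lost without fWT A, fWT C or fKO C and in the fit over all 12 libraries. *E2f2* (mm9 chr4:135728309-135751972), the lowest of the 49 members per exonic kilobase in all groups, had 39.2, 40.6 and 57.8 in fWT and 75.2, 65.7 and 64.7 in fKO (log2 fold change 0.59 ± 0.19, adjusted p = 0.0132, lost without fWT A or fKO A). *E2f3* rose by 0.43 ± 0.059 (adjusted p = 7.47e-06). Per exonic kilobase, *E2f1* made up 65.2% ± 1.99 of the 3 factors in fWT and 54.1% ± 1.04 in fKO (SD, n = 3 libraries), and *E2f3* 32.4% ± 2.31 and 42.3% ± 1.07.

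In males, the comparison of mKO with mWT called 2 members, *Ccnd3* and *E2f2*, both higher (4.08% of the members, against 4.21% of 21872 genes tested), and 0 lower (3.59% of genes). At an unadjusted p under 0.05 there were 8 of 49 members and 5394 of the 21872 genes, so that the members lay below the share of all genes. The median log2 fold change of the members was 0.06, against −0.16 over all genes and 0.02 over the 9753 genes with a mean of at least 100. For 10 members mKO and mWT libraries were fully apart, with 8 of them higher and 2 lower in every mKO library (12.7% and 13.9% of all genes). The median SE of the members was 0.145 in males and 0.0600 in females. Without mWT B 11 members rose and 0 fell (6.57% and 14.9% of genes), and without mKO A 4 rose and 2 fell (9.76% and 10.00% of genes). Without both of these libraries, which stood apart from their groups, 21 rose and 5 fell, while 17.7% of all genes rose and 25.3% fell. Leaving out mWT A, mWT C, mKO B or mKO C left 0, and the share of all genes called fell to 1.96%, 1.56%, 2.72% and 2.41%.

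*Ccnd3*, the partner of *Cdk4* and *Cdk6* with the highest count per exonic kilobase among the D-type cyclins, had 1413, 1609 and 1282 normalized counts in mWT and 1877, 4016 and 3852 in mKO. The groups did not overlap, but mKO A lay far below mKO B and mKO C. The log2 fold change was 1.11 ± 0.26 (limma adjusted p = 0.0330), and the call was lost without any 1 of mWT A, mWT B, mWT C, mKO B or mKO C (log2 fold change 0.91 to 1.19 in these 5 fits). *E2f2* had 46.9, 47.6 and 47.4 in mWT and 79.5, 101 and 90.0 in mKO. Here all mKO libraries were above mWT and the log2 fold change was 0.91 ± 0.22 (adjusted p = 0.0379). This call was lost with limma voom and without mWT A, mWT C, mKO B or mKO C. *Ccnd3* and *E2f2* were thus the members that passed the test upwards in both sexes.

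The composition of the D-type cyclins differed between male libraries. Per exonic kilobase, *Ccnd3* made up 60.3%, 56.4% and 59.2% of the 3 genes in mWT A, B and C, and 57.3%, 83.5% and 82.9% in mKO A, B and C. *Ccnd2*, at 849, 470.4 and 868 normalized counts in mWT and 707, 417 and 372 in mKO, made up 14.3%, 6.52% and 15.8% in mWT and 8.54%, 3.43% and 3.17% in mKO. In females the share of *Ccnd3* was 58.7% ± 0.771 in fWT and 55.9% ± 2.31 in fKO (SD, n = 3 libraries). The library mKO A was thus close to the controls and to the females in this share. It was also the mKO library with an endoderm marker sum of 539.7, against 4328 and 4513 in mKO B and mKO C. In fKO the endoderm sum was 5037 to 5178 and the share of *Ccnd3* 54.4% to 58.6%. In mWT B these were 3997 and 56.4%. The relation of the 2 measures was not tested.

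**Figure D3:**
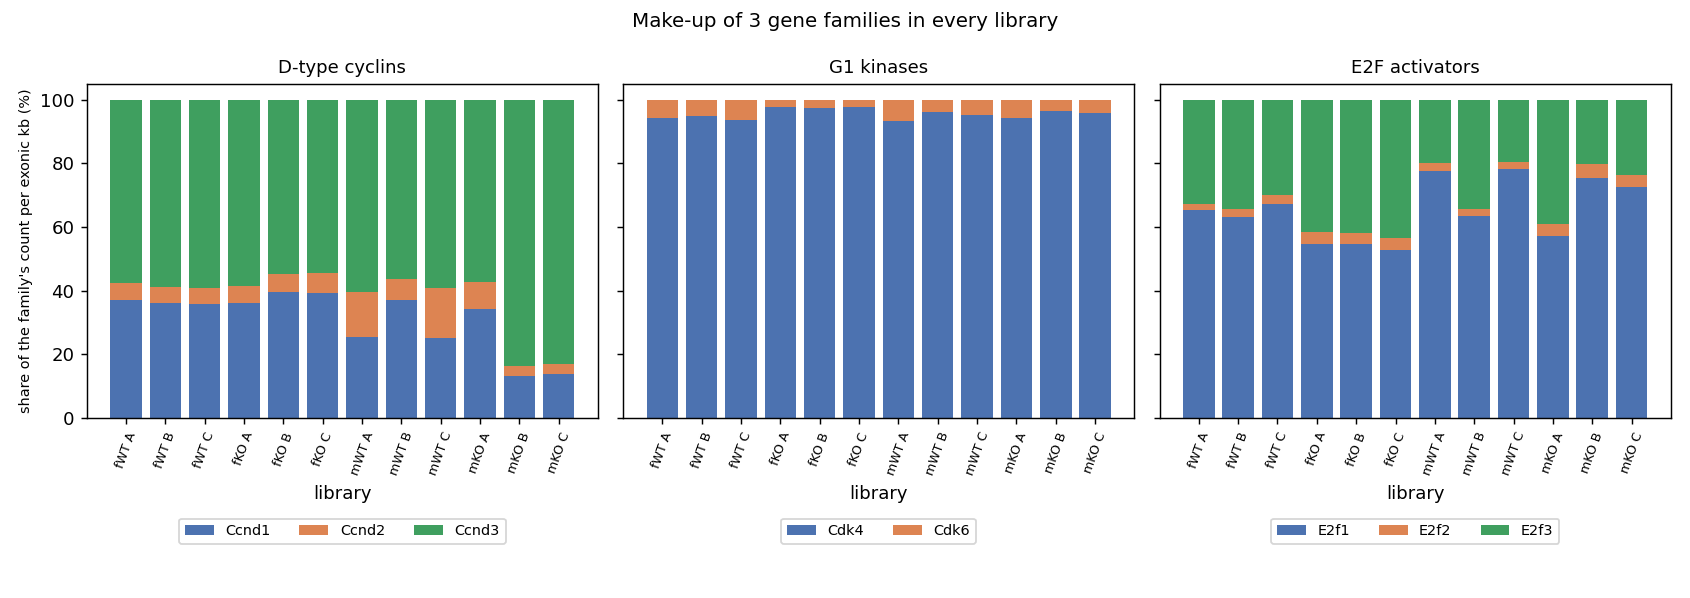
Share of each gene in its family, per exonic kilobase, in each of the 12 libraries (bars add up to 100%). *Ccnd3* rises from 56.4% to 60.3% in mWT to 83.5% and 82.9% in mKO B and C but is 57.3% in mKO A, and the share of *Cdk6* is lowest in the 3 fKO libraries (2.30% to 2.71%).

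Apart from *Ccnd3* and *E2f2*, 8 members had mKO and mWT libraries fully apart without passing the test, namely *Mcm3*, *Mcm6*, *Cdk1*, *Ccna2*, *Ccne2* and *Orc6* above and *Orc1* and *Gins2* below. The male groups of the following 9 genes overlapped. *Mcm10* had 1103, 1459.8 and 1144 normalized counts in mWT and 1175, 1116 and 1142 in mKO, *Orc2* 912, 1200.3 and 836 and then 1309, 1044 and 1073, and *Orc5* 540.4, 622 and 559 and then 624, 538 and 569.9. In each, mWT B was the highest control. *Rfc5* was at 540.4, 731 and 635 in mWT and 748, 655 and 715 in mKO, *Rfc4* at 474, 611 and 533 and then 530.0, 447 and 512, and *Gmnn* at 1688, 2142 and 1694 and then 1831, 2071 and 1940.4. These groups overlapped, and mWT B was again the highest of the controls. *Pold1* was at 1769, 2051 and 1648 in mWT and 1674, 2240.0 and 2103 in mKO. *Prim1* was at 354, 560.3 and 398 and then 373, 380.1 and 391, and *Prim2* at 445, 621 and 469 and then 437, 362 and 469.6. None of these 9 genes passed the test in males.

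*Rpa2* was at 620.1, 957 and 652 normalized counts in mWT and 795, 965 and 962 in mKO, and *Ccne2* at 290.1, 281 and 295 and then 399, 324 and 328. The libraries of *Ccne2* did not overlap (log2 fold change 0.27 ± 0.14, adjusted p = 0.247). *Cdk6* was at 170.5, 133 and 129 in mWT and 166, 86.2 and 111 in mKO, *Gins3* at 128, 118 and 118 and then 120.1, 102 and 104, and *E2f1* at 1032, 889 and 1030.4 and then 795, 1142 and 1093. The male log2 fold change of *Cdk6* was −0.30 ± 0.25, that of *Gins3* −0.15 ± 0.18 and that of *E2f1* 0.02 ± 0.15. The lowest male value was that of *Ccnd2* (−0.55 ± 0.28, adjusted p = 0.255), next to *Gins2* (−0.54 ± 0.17, adjusted p = 0.0858). *Gins2* shares 67.3% of its exonic bases with *Gse1* on the opposite strand, so that its reads cannot be told from those of *Gse1* unless strand was used in counting, which is not given in the sources used here. Of the other members, 14 share up to 21.3% of their exonic bases with a gene on the opposite strand, and *Orc5* shares 12.5% with *Gm15421* on its own strand, and *Mcm7* shares 3.89% with other genes on its own strand.

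The female and male changes were set against each other by the interaction term of a fit to all 12 libraries. It passed for 11 of 49 members, against 21.2% of 22014 genes tested. Among the 14132 genes with a mean of at least 10, which all members reach, 33.8% passed, against 12 of 49 members. The members were thus near or below the share of all genes. For 9 of the 11 the change was lower in males than in females, and for *Pold1* and *Ccnd3* it was higher (10.7% and 10.6% of genes). With scaling by total reads, 6 of 11 were lower and 5 higher (9.68% and 11.9% of genes). *Mcm10* (male minus female log2 fold change −0.74 ± 0.15, adjusted p = 0.00252), *Rfc5* (−0.82 ± 0.16, adjusted p = 0.00231), *Orc5* (−0.56 ± 0.13, adjusted p = 0.00725) and *Pold1* (0.59 ± 0.16, adjusted p = 0.0163) passed under all 17 alternatives run. *Rfc4* (−0.56, adjusted p = 0.0187) was lost without fWT A or fKO B. *Orc2* (−0.55, adjusted p = 0.0407), *Gmnn* (−0.43, adjusted p = 0.0460), *Prim1* (−0.58, adjusted p = 0.0420), *Ccnd2* (−1.01, adjusted p = 0.0432), *Ccnd3* (0.92, adjusted p = 0.0410) and *Ccne2* (−0.54, adjusted p = 0.0336) did not hold in all fits. The calls of *Ccnd2* and *Ccnd3* were lost without any single library but mWT B and mKO A, and with voom. Those of *Orc2* and *Prim1* were lost without any female library, mKO B or mKO C, that of *Gmnn* without fWT A, fWT B, any fKO library or mKO C, and that of *Ccne2* without fWT C, fKO B, fKO C, mWT A, mWT C, mKO B or mKO C. With scaling by total reads those of *Gmnn*, *Ccnd2* and *Ccne2* were lost. Leaving out a female library gave 4 to 6 members (16.2% to 17.5% of genes), mKO B 7 (17.4%) and mKO C 5 (17.6%). Leaving out mWT B or mKO A gave 15 members each (33.3% and 29.9% of genes), and leaving out both gave 21 (45.6% of genes). *Rpa2* (−0.48, adjusted p = 0.102) and *Cdk6* (0.83, adjusted p = 0.0510) did not pass.

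Across the 49 members, the female and male log2 fold changes had a Pearson r of 0.30 and a Spearman rho of 0.36, and 35 members had the same sign in both. The points are genes of the same libraries and are not independent.

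The starting levels of the sexes differed as well. In the controls, mWT was compared with fWT in the fit over 12 libraries, on size factors that were 0.988 to 0.999 times those computed jointly from all 12. Of the members 3 were higher in mWT (11.8% of genes) and 11 lower (9.70% of genes), and the median over members was −0.16, against 0.17 over all genes and −0.06 over the 9659 genes with a mean of at least 100. This comparison shares its control libraries with the ones above. The members lower in mWT included 5 of the 7 helicase genes. Of the 11, *Mcm2*, *Mcm3*, *Mcm5*, *Pcna* and *Rfc3* were lower in all fits. The calls of *Mcm4*, *Mcm6*, *Orc6*, *Rpa3*, *Ccna2* and *Ccne1* were lost without fWT B or mWT A, among other fits. *Mcm2* was at 4842, 4696 and 4590.3 normalized counts in fWT and 2854, 4125 and 2735 in mWT (log2 difference −0.57 ± 0.12, adjusted p = 0.00541). *Pcna* was at 6935, 6133 and 6166 in fWT and 3594, 5313 and 3584 in mWT (−0.65 ± 0.13, adjusted p = 0.00400), and *Rfc3* was lower by a log2 difference of −0.67 ± 0.14 (adjusted p = 0.00402). In *Mcm2* and *Pcna*, mWT B lay between the females and the other control males.

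The 3 members that were higher in mWT were *Ccnd2* (log2 difference 0.93 ± 0.23, adjusted p = 0.0123), *Rfc5* (0.42 ± 0.11, adjusted p = 0.0172) and *Gmnn* (0.30 ± 0.10, adjusted p = 0.0466). None of these 3 calls held in all fits. That of *Ccnd2* was lost without mWT A or mWT C, that of *Rfc5* without fWT A, fWT C or mWT C, and that of *Gmnn* with voom and without any fWT library or mWT B. With scaling by total reads 5 members were higher and 7 lower (13.8% and 7.80% of genes). Without mWT B, 2 members were higher and 24 lower (24.3% and 13.5% of genes), and leaving out any other control library left 7 or 8 in all (13.2% to 14.3% of genes). The summed normalized count of the 49 members was 57900.2, 74505 and 58213 in mWT A, B and C, against 74388 to 75749 in fWT, 81689.9 to 82401 in fKO and 68437 to 69693 in mKO. The 2 control males with the lower sums, mWT A and mWT C, were those with reads on 20773 and 20368 genes, and the part of these added genes in the lower sums was not tested.

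**Figure D4:**
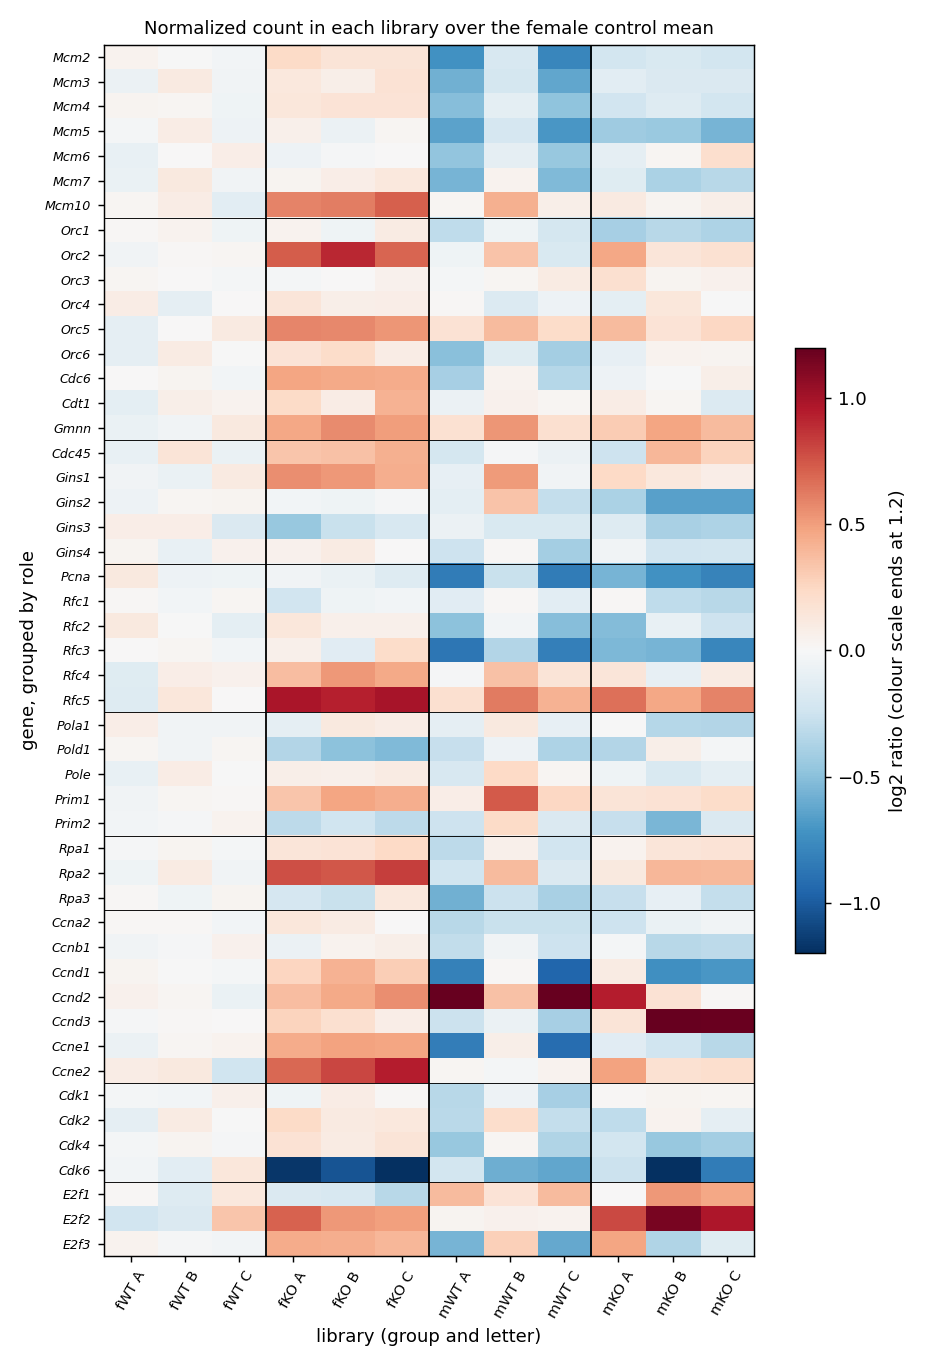
Log2 ratio of the normalized count of each member in each library to its mean in fWT (colour), with libraries in columns and members grouped by role in rows. The fKO columns are red for *Orc2*, *Orc5*, *Mcm10*, *Rfc5*, *Rpa2* and *Ccne2*, mWT A and C are blue for the helicase ring, *Pcna* and *Ccne1* while mWT B is paler, and the colour scale is exceeded by *Ccnd3* in mKO B, *Ccnd2* in mWT A and C and *Cdk6* in fKO C and mKO B.

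Levels between genes were compared per kilobase of exon (GENCODE vM1, mm9). *Pcna* was the highest of the 49 members in every group, with a mean of 2671 ± 189 normalized counts per kilobase in fWT, 2502 ± 102 in fKO, 1735 ± 415 in mWT and 1652 ± 148 in mKO (SD, n = 3 libraries). *Gmnn*, *Mcm2* and *Mcm3* followed near the top, at 1250.4 ± 92.8, 1397 ± 37.5 and 1169 ± 77.3 in fWT. The order of *Mcm3*, *Mcm7* (1159 ± 84.6) and *Gmnn* in fWT was within their spread. At the low end were *E2f2* (9.40 ± 2.12 in fWT), *Cdk6* (53.2 ± 4.99), *Gins3* (55.6 ± 5.45) and *Ccnd2* (64.8 ± 3.14). The order of *Cdk6* and *Gins3* was within their spread. *Ccnd3* ranked 12 in fWT, fKO and mWT and 3 in mKO, at 1440.5 ± 528.

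Other genes of the same pathways were counted from lists that, like the members, were chosen with earlier results of these data known. Their shares are therefore descriptive. Among 32 further replication fork genes tested, 15 rose and 5 fell in females and 1 rose and 1 fell in males, with medians of 0.13 and 0.01. Over all genes 25.4% rose and 24.7% fell in females and 4.21% and 3.59% in males, so that the male counts were near the background. The female changes were led by *Pold4*, a small subunit of polymerase delta, at 62.4, 65.9 and 68.9 normalized counts in fWT and 22.7, 17.7 and 30.3 in fKO (log2 fold change −1.47, adjusted p = 1.94e-05). *Pole4*, a subunit of polymerase epsilon (0.72), *Usp1*, which removes ubiquitin from *Pcna* (0.60), and *Fen1*, the flap endonuclease of lagging strand synthesis (0.49), rose. *Pola2* was not tested, since its authors' means of 10815 in fWT and 18507 in fKO were above the limit of 10000 up to which reads were worked out, and the same held for *Top2a* below.

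Of 10 cyclin-dependent kinase inhibitors and pocket proteins, 6 fell and 0 rose in females, whereas 3 rose and 0 fell in males, and the interaction passed for 7. Over all genes 24.7% fell and 25.4% rose in females, 4.21% rose and 3.59% fell in males, and the interaction passed for 21.2%. *Cdkn1b*, which binds cyclin E and *Cdk2*, was at 693, 617 and 653 normalized counts in fWT and 321, 364 and 364 in fKO (log2 fold change −0.90, adjusted p = 9.48e-09). *Cdkn1c*, an imprinted inhibitor of the same family, was at 595, 539 and 539 in fWT and 331, 345 and 277 in fKO (−0.82, adjusted p = 1.86e-07), and at 205, 239.8 and 250.1 in mWT and 1300.1, 2508 and 2132 in mKO (3.04, adjusted p = 1.36e-04). *Cdkn2b*, an inhibitor of *Cdk4* and *Cdk6*, fell in females (−1.22, adjusted p = 6.74e-05) and rose in males (1.08, adjusted p = 0.0221). *Cdkn2d* fell in females (−0.74, adjusted p = 6.33e-06). The other gene that rose in males was *Cdkn2a* (1.01, adjusted p = 0.00905), which was named after its values had been seen and whose male call was lost without mWT A or mWT C. The male call of *Cdkn2b* was lost without mWT A, mWT C, mKO B or mKO C.

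Of 19 genes of G2 and mitosis tested, 14 fell and 3 rose in females (median −0.28), while 1 fell in males (median −0.05). The shares over all genes were 24.7% and 25.4% in females and 3.59% in males, and they are the background of the E2F and checkpoint lists below too. *Plk1*, a kinase of mitotic entry, was at 2887, 2963 and 2872 normalized counts in fWT and 1912, 1859 and 1857 in fKO (log2 fold change −0.63, adjusted p = 9.42e-09). *Cdc25b* (−0.90), a phosphatase that activates *Cdk1*, *Aurkb* (−0.68), a kinase of chromosome segregation, and *Cenpa* (−0.47), the centromeric histone, also fell. Of 12 further E2F family members and partners, 2 rose and 2 fell in females. *Mybl2* rose in both sexes, at 1987, 2143 and 1894 in fWT, 3862, 3493 and 3788 in fKO (0.89, adjusted p = 8.14e-10), 2128, 2998 and 2058 in mWT and 3171, 4426 and 3964 in mKO (0.69, adjusted p = 0.0425). Its male call was lost with limma voom and without mWT A, mWT C, mKO B or mKO C. *Tfdp1*, a partner of E2F factors, rose (0.46) and the repressors *E2f8* (−0.53) and *E2f5* (−0.21) fell, the last a call lost without fWT C, fKO A or fKO C and in the fit over all 12 libraries. Of 9 checkpoint genes, 4 rose and 1 fell in females. They included *Trp53* (0.52), *Rad1* (0.46) and *Rad17* (0.40), which rose, and *Chek2* (−0.33), which fell. In the fit over all 12 libraries the calls of *Rad1* and *Chek2* were lost (limma adjusted p = 0.0579 and 0.0756). In males 1 of the 9 fell.

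**Figure D5:**
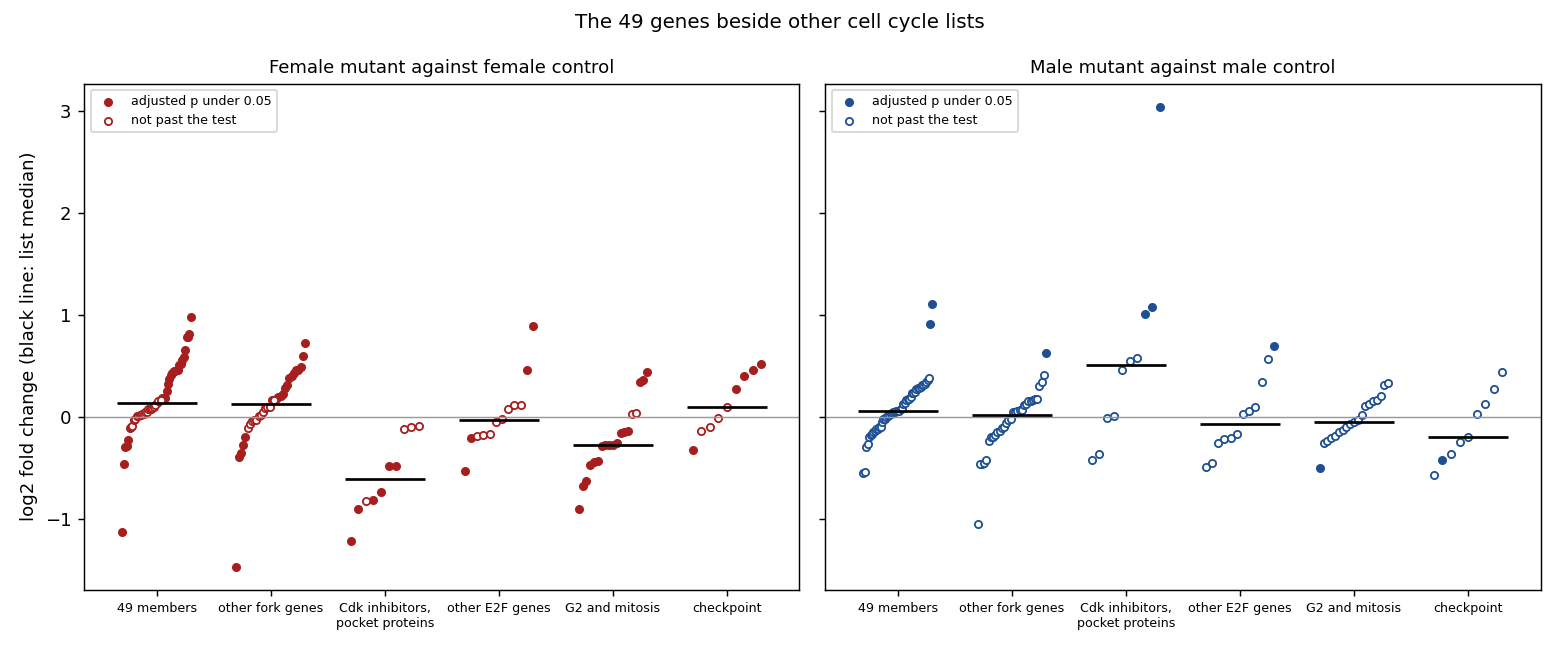
Log2 fold changes in females (left) and males (right) of the 49 members and of 5 lists of related genes. Each point is a gene, filled where the adjusted p is under 0.05, and the black line is the list's median, which in females is −0.61 for inhibitors and pocket proteins and −0.28 for G2 and mitosis, against 0.14 for the members.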

How the data were processed

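RNA-Seq was performed by the authors on rRNA-depleted RNA with strand-specific libraries, sequenced as single-end 50 bp reads, mapped to mm9 with TopHat2 2.1.0 and Bowtie2 2.2.6.0 with up to 1 mismatch, keeping unique reads. The gene annotation is not given in the sources used here. The authors deposited 2 tables, 1 per sex, whose signal columns are mean normalized counts per genotype, that is, read counts divided by the size factor of each library and averaged over 3 libraries. Columns with the authors' fold changes, ratios and p-values were not used.

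The reads of each library were solved from the means as whole numbers, each divided by its size factor, for means of up to 10000. Every such gene had 1 solution, and 86.0% to 91.4% of the normalized reads were recovered. On simulated means all reads came out right, and 0 of 2000 decoys had a solution. The planned design assumed such reads. Limma 3.58.1 (R 4.3.3) was fitted with an intensity trend to log2(normalized count + 1) of genes with at least 1 read, within each sex, and over 12 libraries for the interaction and the control comparison, with p-values adjusted by Benjamini-Hochberg. On simulated data with 200 changed genes, 100% and 96% of log2 changes of 1 and 0.5 were recovered at the median spread of fWT. At the median spread of mWT these were 100% and 59%. The simulation gave all genes and both genotypes that single spread, so recovery in the real comparisons can differ. Alternatives were a pseudocount of 0.1, limma voom, a minimum mean of 10, scaling by total reads, the fit over 12 libraries and leaving out libraries. The comparison of control sexes was added after the data had been seen. Intervals and depths cover counting and library spread only, and reads can be PCR copies.

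The members and lists were chosen with earlier results of these data known. Values in every library are given for members past the threshold in males or in the interaction and for the 5 highest and 5 lowest female changes. Of the wider lists, the 4 genes with the largest female change among those called are named. Tables were handled in Python 3.11.15 (pandas 2.3.3, numpy 2.4.6), reads were solved with numba 0.67.0, correlations came from scipy 1.17.1, and plots were drawn with matplotlib 3.10.9.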

Additional observations from a re-analysis of the deposited data

Results flagged for a closer look

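The results in this section were marked because the interaction of sex and genotype passed the threshold (limma, Benjamini-Hochberg adjusted p under 0.05). Values are the log2 fold change in males minus that in females. Among the members the change was lower in males for *Mcm10* (−0.74), *Orc2* (−0.55), *Orc5* (−0.56), *Gmnn* (−0.43), *Rfc4* (−0.56), *Rfc5* (−0.82), *Prim1* (−0.58), *Ccnd2* (−1.01) and *Ccne2* (−0.54), and higher in males for *Pold1* (0.59) and *Ccnd3* (0.92). Among the named genes of the other lists it was higher in males for *Pold4* (1.62), *Cdkn2b* (2.30), *Cdkn1b* (0.48), *Cdkn1c* (3.86), *Cdkn2d* (1.29), *Cdkn2a* (1.49), *Cdc25b* (0.71), *Plk1* (0.74) and *Cenpa* (0.62), and lower in males for *Usp1* (−0.53) and *Rad1* (−1.03). Over all genes the interaction passed for 21.2%. Among the members listed, *Mcm10*, *Orc5*, *Rfc5* and *Pold1* passed under all 17 alternatives, and the calls of the others were each lost in some. The call of *Cdc25b* was lost without fWT A, fWT C, fKO B, fKO C or mKO B (limma adjusted p up to 0.0716), and that of *Cdkn1b* without fWT A or fKO A (up to 0.0596).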

How the results depend on the processing

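The 28 members called in females (50.1% of genes) became 14 in the fit over 12 libraries (29.5% of genes). The members' median female log2 fold change of 0.14 became 0.07 when scaled by total reads, while that of all genes went from 0.00 to −0.06. Without single libraries the members' median was 0.12 to 0.17. In males the 2 calls (7.80% of genes) became 1 with voom (6.12%) and 8 in the fit over 12 libraries (21.6%). They became 0 to 11 without single libraries (1.56% to 21.5%) and 26 without mWT B and mKO A (42.9%). The median log2 fold change of the members in males (0.06) was −0.004 to 0.20 without single libraries, reversed without mWT C, and 0.17 without mWT B and mKO A. The interaction gave 4 to 15 members without single libraries (16.2% to 33.3% of genes) and 21 without those 2 (45.6%). The 14 differences between controls (21.5% of genes) became 7 to 26 without single libraries (13.2% to 37.8%) and 33 without those 2 (48.8%). The cause of these shifts was not tested. For the named genes that had passed, 395 of 418 recomputed female values, 51 of 72 male values and 311 of 374 interaction values stayed past the threshold, and 0 reversed. No paired analysis was possible because the libraries worked out from the means carry no replicate numbers. The male spread and the 3 libraries per group limit what can be called. Of log2 changes of 0.5 simulated at the median spread of mWT, 59% were recovered.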
